A study of Mus musculus with 6 samples.

Results

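Matrix metalloproteinases (MMPs), ADAMTS proteases and tissue inhibitors of metalloproteinases (TIMPs) were examined as a set of 37 genes, chosen as members of the Mmp, Timp and Adamts families. Of these, 33 were measured, among 18193 genes in all. Each gene was read from 1 probe set, the brightest on average of those that the array annotation assigns to that gene alone. No probe set was assigned to Mmp15, Adamts2, Adamts14 or Adamts17, which were not analysed here.

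The RNA came from fresh, untreated bone marrow cells of wild-type C57BL/6 mice, measured on Affymetrix MOE430_2 arrays. One group, of 3 arrays, held cells sorted as CD45-TER119-CD31-EBF2+, and the other group, also of 3 arrays, held cells sorted as CD45-TER119-CD31-EBF2-. Both sorts were thus set to leave out cells with CD45 (leukocytes), TER119 (red cell precursors) and CD31 (endothelium), and differed in Ebf2, a transcription factor of immature mesenchymal cells. The sources used here do not give how Ebf2 was detected, the age and number of the animals or any pooling. Each RNA sample came from 1000 or 2000 cells, and whether replicates were separate animals is not stated, so p-values here reflect the spread between samples alone, and that spread may be technical.

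MMPs are zinc proteases that cut collagens, proteoglycans and other matrix proteins, and most are secreted as inactive proenzymes. TIMPs bind to their active sites and block them, and Timp3 also blocks several ADAMTS enzymes. ADAMTS proteases are secreted, carry thrombospondin repeats and process proteoglycans, procollagens and other matrix components. In marrow and bone these families are known for remodelling the matrix around stromal, bone and cartilage cells, and Mmp8 and Mmp9 are also stored in neutrophil granules.

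All values below are log2 of the RMA signal, where RMA is the method that turned the probe readings of a set into 1 value per array. The median probe set stood between 3.70 and 3.81 on the 6 arrays, so values near or below 4 lie at the dim end. Differences are Ebf2-positive minus Ebf2-negative, from limma with Benjamini-Hochberg adjustment over all 18193 genes, and a gene is called when its adjusted p is below 0.05. Ebf2 followed the sort, at 8.13, 8.80 and 8.04 in Ebf2-positive and 3.10, 4.02 and 3.84 in Ebf2-negative cells.

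Marker lists showed that the arrays differed in more than Ebf2. The mean signal of 9 erythroid genes was 4.73 to 5.43 on the Ebf2-positive and 9.46 to 9.68 on the Ebf2-negative arrays, and all 9 were called lower. The 9 fibroblast genes averaged 10.81 to 11.19 against 4.95 to 5.73, and the 8 pericyte and smooth muscle genes 9.21 to 9.51 against 4.30 to 4.98, with 9 and 7 called higher. Despite the CD45- gate, 8 pan-leukocyte genes averaged 5.12 to 5.74 against 7.38 to 7.95, and 5 were called lower. Of 6 basophil and mast cell genes 5 were called lower (3.55 to 4.02 against 6.43 to 7.80), and of 5 megakaryocyte genes 4 were (4.74 to 5.06 against 6.28 to 6.91). Despite the CD31- gate, 9 endothelial genes averaged 5.54 to 6.91 against 4.42 to 5.78. Of these, Tek (2.51) and Esam (2.48) were called higher and 7 were not called. Pecam1, the gene of CD31 itself, was among the 7 and was dim, with means of 3.57 and 3.01. Ebf2-positive replicate 2 stood apart in the mean of 8 chondrocyte genes (5.24, against 8.06 and 8.14 on replicates 1 and 3) and of 10 neutrophil genes (9.47, against 7.72 and 8.05). It was also above replicates 1 and 3 in the endothelial mean (6.91, against 5.54 and 5.81). The mean of 8 macrophage and monocyte genes was likewise higher on it (4.56, against 3.47 and 3.53). The part of these differences in the results below was not tested. In such bulk samples, fewer cells of a type and less RNA per cell cannot be told apart.

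Of the 33 measured members, 15 were called in either direction, where 24.4% of all genes were. Of these, 14 were called higher (42.4%), where 10.8% of all genes were, and 1 was called lower (3.03%), where 13.6% of all genes were. The remaining 18 members were not called. The largest differences were those of Adamts12 (5.95), Mmp2 (5.27), Timp3 (4.85), Timp2 (4.75) and Adamts5 (4.41). The median difference was 1.29 over the members and 0.07 over all genes. The groups did not overlap for 20 members that were higher and 2 that were lower in Ebf2-positive cells, properties held by 21.8% and 21.2% of all genes.

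Calls were more frequent at brighter signals, among all genes as among the members. Of 18 members with a mean of at least 6 in either group, 13 were called higher and 1 lower. A gene can reach this level through its higher group alone, as Adamts12 did (9.48 against 3.52). The filter thus itself favours genes that differ, and these counts do not separate brightness from difference. When only the 8494 genes of that brightness were tested, 51% were called (1771 higher and 2565 lower), and 15 of the 18 members were called higher and 2 lower. Of 15 below that level in both groups, 1 was called (Adamts4), and of 8 below 4 in both groups none passed, with differences from -1.01 to 0.74. Arrays compress differences near their lower end, which limits what the dim members can show in either direction. For Mmp3, Mmp11, Adamts4, Adamts12, Adamts15 and Adamts16 the Ebf2-negative mean was below 4, so their folds are not exact.

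Scaling affects directions. The probe sets of the poly-A controls, bacterial RNAs made for adding to samples before labelling, averaged 12.31 on the Ebf2-positive and 9.82 on the Ebf2-negative arrays, and centring on them moved every difference by -2.49. After this poly-A centring, 5 members were called higher, namely Adamts12, Mmp2, Timp2, Timp3 and Adamts5, and 15 were called lower. The median difference of the members became -1.20 and that of all genes -2.42. Centring on the 75th percentile moved differences by 0.12, and 18 members were then called higher and 0 lower. Every difference given here is therefore relative to the other genes on the arrays.

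**Figure D1:**
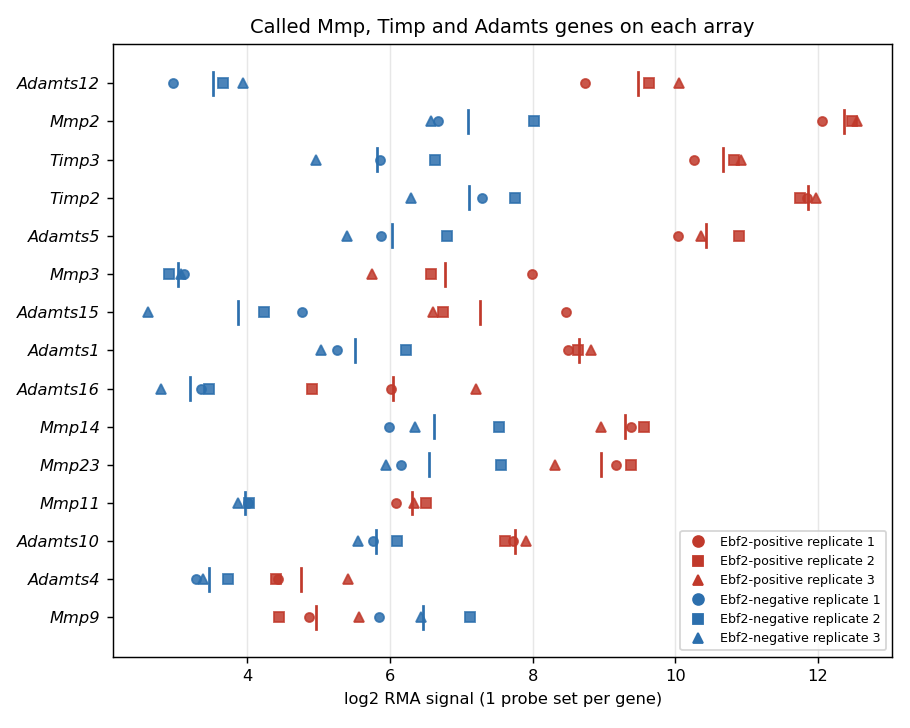
Log2 RMA signal (horizontal axis) of the 15 called members on each of the 6 arrays. Red symbols are Ebf2-positive and blue symbols Ebf2-negative arrays, the symbol shape is the replicate, and vertical ticks are group means. The groups do not overlap for any of the 15 genes, and Mmp9 is the only one with the blue symbols to the right.

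Mmp2 and Mmp9, the gelatinases, which degrade denatured collagen and basement membrane collagen, moved in opposite directions. Mmp2 stood at 12.05, 12.48 and 12.55 in Ebf2-positive cells, while the Ebf2-negative arrays gave 6.67, 8.02 and 6.58. Every Ebf2-positive array was far above every Ebf2-negative array, of which replicate 2 was the highest. The difference was 5.27 (SE 0.42), or 38.6-fold (adjusted p = 0.000638), and the second Mmp2 probe set differed by 5.43.

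Mmp9, an enzyme of neutrophils, osteoclasts and macrophages, was the only member called lower. Its values, given after they were seen, were 4.86, 4.45 and 5.57 on the Ebf2-positive and 5.84, 7.12 and 6.44 on the Ebf2-negative arrays. The groups were separated by a small gap, with a difference of -1.51 (SE 0.42, 2.84-fold, adjusted p = 0.0443). It missed the threshold when Ebf2-positive replicate 1 (adjusted p = 0.107) or 2 (0.102) was left out, and likewise without Ebf2-negative replicate 2 (0.119) or 3 (0.123). It was also lost after a further quantile normalization (0.0509), with centring on the 75th percentile (0.0544), with a trended robust variance model (0.0502), against a minimum log2 difference of 1 (0.664) and without both arrays numbered 2 (-0.92, adjusted p = 0.197).

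The second Mmp9 probe set showed a larger difference. It stood at 2.50, 4.52 and 3.21 in Ebf2-positive and at 5.92, 6.95 and 6.18 in Ebf2-negative cells. The gap between the groups was wider than on the probe set above, and the difference was -2.94 (adjusted p = 0.0181 among 45037 probe sets tested singly). In that same test the brighter probe set did not pass (adjusted p = 0.0645). The direction was thus shared by both probe sets and the call was not.

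The stromelysins, secreted enzymes of broad specificity, differed among themselves. Mmp3, which cuts proteoglycans and activates other MMPs, stood at 7.99, 6.58 and 5.75 in Ebf2-positive and at 3.12, 2.91 and 3.08 in Ebf2-negative cells. The Ebf2-negative values lay at the dim end of the range and the Ebf2-positive values were widely spread. The difference was 3.74 (SE 0.54), or about 13.3-fold (adjusted p = 0.00442). Mmp11, which is unusual in being activated inside the cell, stood at 6.08, 6.51 and 6.34 against 4.01, 4.02 and 3.88. Replicates of each group lay close together, and the difference was 2.34 (SE 0.19, adjusted p = 0.000706), which poly-A centring turned to -0.15. Mmp10, a close relative of Mmp3, was dim in both groups (3.60 ± 0.07 and 3.69 ± 0.10, SD, n = 3).

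Mmp13, the main interstitial collagenase of rodents and an enzyme of osteoblasts and hypertrophic cartilage, had the largest spread within a group. Its signal was 3.77, 8.33 and 1.91 in Ebf2-positive cells, while the Ebf2-negative arrays gave 8.94, 9.03 and 8.0. Ebf2-positive replicate 2 lay inside the Ebf2-negative range, and replicates 1 and 3 lay at the dim end. The difference of -3.98 (SE 1.53) did not pass (adjusted p = 0.114). Without Ebf2-positive replicate 2 it was -5.81 and passed (adjusted p = 0.00338).

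Mmp8, the neutrophil collagenase, was much dimmer, and its values were looked up afterwards. It stood at 2.75, 3.77 and 2.44 in Ebf2-positive and at 4.19, 3.94 and 3.85 in Ebf2-negative cells. The groups did not overlap, and Ebf2-positive replicate 2 was the closest to the other group. The difference of -1.01 (SE 0.37) did not pass (adjusted p = 0.0964) but did without that array (-1.40, adjusted p = 0.0104).

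Marker lists of leukocytes and bone cells were set beside Mmp13, Mmp8 and Mmp9. The pan-leukocyte and the basophil and mast cell lists, given above, were lower in Ebf2-positive cells for 5 of 8 and 5 of 6 genes. The 10 neutrophil genes averaged 7.72, 9.47 and 8.05 on the Ebf2-positive and 8.13, 9.08 and 8.78 on the Ebf2-negative arrays. Of these, 2 were called higher, 0 lower and 8 not called, and only Cxcr2 was below 4 on every array. The mean pools genes that differed in sign, as seen afterwards. Mpo (1.42) and Prtn3 (1.53), of the early granules, were called higher. Ltf (-2.24), Camp (-1.88) and Ngp (-2.0), of the later granules, did not pass. Ebf2-positive replicate 2 was the highest of its group for every neutrophil gene listed, Mpo and Prtn3 included, as it was for Mmp13 and Mmp8. This place was not particular to neutrophil genes. The means of the pan-leukocyte, macrophage and monocyte, basophil and mast cell, B cell, endothelial, fibroblast and osteoblast lists shared it. Those of the erythroid, osteoclast, megakaryocyte, pericyte and smooth muscle, and chondrocyte lists did not. For Mmp9, Ebf2-positive replicate 2 was the lowest of its group on the brighter probe set (4.45) and the highest on the second (4.52). The 6 osteoblast genes averaged 5.35 to 5.63 against 5.62 to 6.31, and 1 was called higher and 1 lower. This mean, too, pools genes that differed in sign, as looked up afterwards. Alpl (1.22) was called higher and Dmp1 (-2.79) lower, while Phex (-0.85), Ibsp (-0.57), Sp7 (0.02) and Sost (0.09) were not called. The 7 osteoclast genes averaged 3.66 to 3.84 against 3.18 to 3.44. None of the 7 was called, and Ocstamp, Dcstamp, Calcr and Oscar were below 4 on every array. The 8 macrophage and monocyte genes averaged 3.47 to 4.56 against 4.32 to 4.67, with 2 called lower and Adgre1, Cd163 and Cx3cr1 below 4 throughout. The part of neutrophil, macrophage or bone cells in the Mmp9, Mmp8 and Mmp13 signals was not tested.

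**Figure D2:**
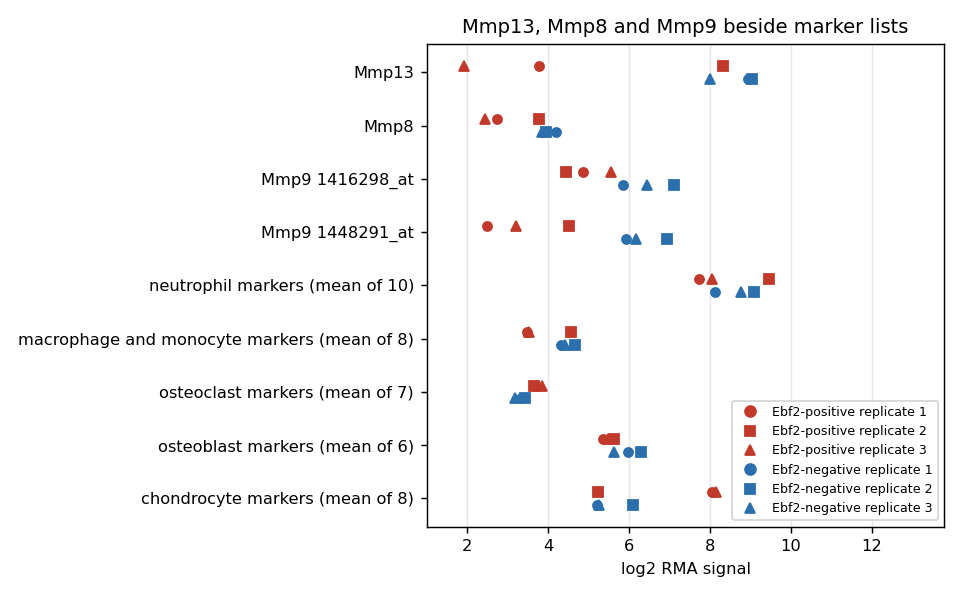
Log2 RMA signal (horizontal axis) of Mmp13, Mmp8, both Mmp9 probe sets and the means of 5 marker lists on each array. Red symbols are Ebf2-positive and blue symbols Ebf2-negative arrays, with 1 symbol shape per replicate. Ebf2-positive replicate 2 (red square) lies at 8.33 for Mmp13, near the blue symbols, and at 5.24 for the chondrocyte list, where replicates 1 and 3 lie at 8.06 and 8.14.

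Mmp13, Mmp12, Mmp3, Mmp10 and Mmp8 lie in this order in a single cluster of MMP genes on chromosome 9. The sequences before their starts are shown because 4 of the 5 genes hold the same letters close to the start while their signals differed. The set was chosen after the matches and signals were seen. The sequences come from RefSeq (build GRCm38.p6), are the 100 bases before the annotated start on the plus strand, and have matches to TGANTCA, the letters bound by AP-1 factors, in capitals. Mmp12 has 2 annotated starts, of which the one with a match is shown.
Mmp13, chr9:7272414-7272513: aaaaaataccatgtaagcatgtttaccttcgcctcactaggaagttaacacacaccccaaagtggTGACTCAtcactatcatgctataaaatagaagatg
Mmp12, chr9:7347274-7347373: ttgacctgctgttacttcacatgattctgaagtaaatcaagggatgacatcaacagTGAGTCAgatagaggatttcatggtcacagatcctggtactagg
Mmp3, chr9:7445722-7445821: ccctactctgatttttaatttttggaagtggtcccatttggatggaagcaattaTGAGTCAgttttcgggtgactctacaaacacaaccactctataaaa
Mmp10, chr9:7502242-7502341: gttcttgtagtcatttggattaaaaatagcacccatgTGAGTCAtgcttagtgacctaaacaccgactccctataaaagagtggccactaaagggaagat
Mmp8, chr9:7558329-7558428: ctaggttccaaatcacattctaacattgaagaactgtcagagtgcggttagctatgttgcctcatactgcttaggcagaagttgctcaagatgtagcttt

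Mmp13, Mmp12, Mmp3 and Mmp10 carry the letters. Mmp3 was called higher in Ebf2-positive cells, and Mmp10 and Mmp12 were dim throughout. Mmp13 was not called, and was bright on all Ebf2-negative arrays and on Ebf2-positive replicate 2 (8.33). The part of the letters in these signals was not tested. Counting back from -1 at the last base before the start, the match began at base -35 in Mmp13, -44 in Mmp12, -46 in Mmp3 and -63 in Mmp10. The letters read the same on both strands apart from the free middle base. Over the window from 250 bases before to 50 after the start, 4 of 25 member promoters held them, all in this cluster, against 7.81% of 32851 promoters of all genes. The table held promoters of 23 of the 37 members. A match is a description of the letters and does not show binding.

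Of the remaining secreted MMPs, Mmp12, the macrophage elastase, was dim in both groups (2.25 ± 0.15 and 2.10 ± 0.14). Mmp19, found in many tissues, was also dim, at 2.88 to 3.23 against 2.36 to 2.73, and its difference of 0.48 did not pass (adjusted p = 0.144). Neither gene gave a signal on which a difference could be read with confidence.

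Mmp14, a membrane-anchored collagenase that activates pro-Mmp2 together with Timp2, was higher in Ebf2-positive cells. It stood at 9.38, 9.56 and 8.96 on the Ebf2-positive and at 5.98, 7.52 and 6.36 on the Ebf2-negative arrays. Ebf2-negative replicate 2 was again the highest of its group, and the groups did not overlap. The difference was 2.68 (SE 0.42), or 6.41-fold (adjusted p = 0.00592), and 0.19 after poly-A centring. The other 2 Mmp14 probe sets, with means of 5.25 and 5.31 in Ebf2-positive cells, differed by 1.01 and 1.41 and did not pass.

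Among called members with a promoter in the table, Mmp14 alone held letters of both an EBF and a RUNX motif, and is shown for that reason. The 250 bases before its start lie at chr14:54431348-54431597 on the plus strand of GRCm38.p6, with the matches in capitals.
Mmp14: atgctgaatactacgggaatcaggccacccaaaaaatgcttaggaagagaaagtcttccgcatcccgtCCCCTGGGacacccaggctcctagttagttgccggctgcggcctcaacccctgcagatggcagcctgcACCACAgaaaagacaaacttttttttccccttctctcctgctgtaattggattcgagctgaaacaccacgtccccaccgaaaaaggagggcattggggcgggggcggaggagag
The first match is to CCCNNGGG, the letters bound by EBF factors, which begins at base -182 counted from the start. The second is TGTGGT, the core of RUNX sites, read on the opposite strand, which begins at base -114. CCCNNGGG was held by 5 of the 25 member promoters, those of Mmp11, Mmp14, Mmp24, Adamts9 and Adamts20, and by 13.7% of all promoters. TGTGGT on either strand was held by 3, those of Mmp13, Mmp14 and Mmp23, and by 16.8% of all promoters. No 2 matches overlapped. Of the genes with CCCNNGGG, Mmp11 and Mmp14 were called higher and Mmp24, Adamts9 and Adamts20 were not called.

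Mmp23, a small membrane-anchored MMP that lacks the usual C-terminal domain, stood at 9.16, 9.38 and 8.32 in Ebf2-positive and at 6.15, 7.56 and 5.94 in Ebf2-negative cells. The lowest Ebf2-positive array and the highest Ebf2-negative array, replicates 3 and 2, were close to each other. The difference was 2.40 (SE 0.50), or 5.29-fold (adjusted p = 0.0158), and it became -0.09 with poly-A centring. Leaving out Ebf2-negative replicates 1 or 3 ended the call (adjusted p = 0.0621 and 0.0605). A second probe set differed by 1.97 and was called as well.

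The other membrane-anchored MMPs were dimmer. Mmp16, which like Mmp14 can activate pro-Mmp2, was at 3.96 to 4.41 against 2.90 to 3.66, and its difference of 0.88 missed the threshold (adjusted p = 0.0537). It passed without Ebf2-negative replicate 2 (1.07, adjusted p = 0.0481). Mmp17, held in the membrane by a lipid anchor, overlapped between groups (0.60, adjusted p = 0.283). Mmp24, best known from neurons, stood at 4.96 to 5.17 on all 6 arrays, and the 95% interval of its difference ran from -0.46 to 0.37.

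All 4 inhibitor genes had higher means in Ebf2-positive cells, as did 10036 of all 18193 genes. Of the 4, 2 were called higher (50%), where 10.8% of all genes were. Timp2, the partner of Mmp14 in Mmp2 activation, was at 11.85, 11.75 and 11.98 on the Ebf2-positive and at 7.29, 7.75 and 6.29 on the Ebf2-negative arrays. The Ebf2-positive values lay within a narrow band far above the others. The difference was 4.75 (SE 0.38), or 26.9-fold (adjusted p = 0.000642). Of its 6 probe sets, 4 were called higher, by 3.21 to 5.57, and the 2 dimmest were not.

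Timp3, the inhibitor that stays bound to the matrix, stood at 10.26, 10.82 and 10.93 in Ebf2-positive and at 5.86, 6.63 and 4.97 in Ebf2-negative cells. The groups were separated by a wide gap, with Ebf2-negative replicate 2 the highest of its group and replicate 3 the lowest. The difference was 4.85 (SE 0.44), or 28.8-fold (adjusted p = 0.00095). Each of the 4 Timp3 probe sets was called, with differences of 2.08 to 4.85. Timp2 and Timp3 were also called higher after poly-A centring.

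Timp4, an inhibitor of restricted tissue range, was bright but not called. It stood at 8.35, 8.98 and 7.28 in Ebf2-positive and at 6.29, 7.49 and 4.70 in Ebf2-negative cells. Ebf2-negative replicate 2 lay above Ebf2-positive replicate 3, so the groups overlapped. The difference was 2.04 (SE 0.76, adjusted p = 0.106), and it passed without Ebf2-negative replicate 2 (2.71, adjusted p = 0.049). After poly-A centring it was -0.45. A second, dimmer Timp4 probe set, with means of 5.01 and 4.45, differed by 0.56 and was not called.

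Timp1, an inducible inhibitor of most secreted MMPs, ranged from 5.37 to 7.30 in Ebf2-positive and from 3.39 to 5.85 in Ebf2-negative cells. The groups overlapped through Ebf2-negative replicate 2. The difference of 1.79 (SE 0.75) did not pass (adjusted p = 0.143) but did without that array (2.51, adjusted p = 0.0449). In the RefSeq annotation Timp1, Timp3 and Timp4 overlap the synapsin genes Syn1, Syn3 and Syn2. The positions of the probes within these loci were not examined.

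Ebf2-negative replicate 2 was the highest array of its group for 11 of the 14 members called higher, and replicate 3 the lowest for 10. The mean of the 14 was 5.02, 5.62 and 4.70 on Ebf2-negative replicates 1, 2 and 3, and 8.62, 8.57 and 8.66 on the Ebf2-positive arrays. The fibroblast markers had the same highest array in that group, with means of 4.95, 5.73 and 5.23 on Ebf2-negative replicates 1, 2 and 3. Their lowest was replicate 1. The highest array was not particular to fibroblast markers. The erythroid, neutrophil, macrophage and monocyte, osteoclast, megakaryocyte, endothelial, pericyte and smooth muscle, osteoblast and chondrocyte lists shared it. The pan-leukocyte, basophil and mast cell, and B cell lists did not. The part of fibroblast or other RNA in the Ebf2-negative signals was not tested.

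**Figure D3:**
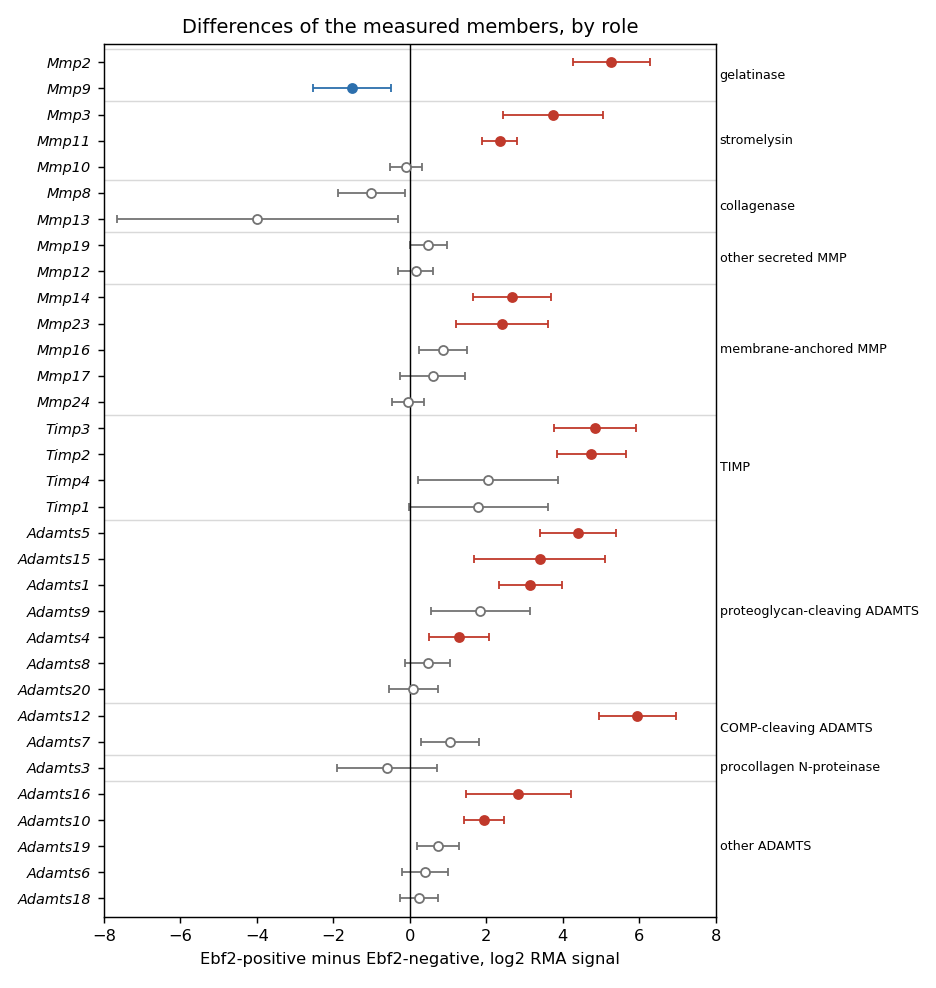
Difference of each of the 33 measured members, Ebf2-positive minus Ebf2-negative, in log2 RMA signal (horizontal axis), ordered by role. Points are estimates and bars 95% intervals from limma, not adjusted for the number of genes. Filled red points are the 14 genes called higher, the filled blue point is Mmp9, called lower, and open points did not pass. Mmp13 has the widest interval, from -7.67 to -0.30.

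Adamts5, Adamts1, Adamts4 and relatives cut aggrecan and versican, the large proteoglycans of cartilage and loose connective tissue. Of the 7 measured genes of this group, 4 were called higher (57.1%) and 0 lower, where 10.8% and 13.6% of all genes were. Adamts5 stood at 10.04, 10.90 and 10.37 on the Ebf2-positive and at 5.88, 6.80 and 5.40 on the Ebf2-negative arrays. No Ebf2-negative array came near the Ebf2-positive values. The difference was 4.41 (SE 0.41), or 21.2-fold (adjusted p = 0.001). Of the other 3 probe sets, the brighter pair differed by 3.57 and 3.06 and was called, and the dimmest (0.91) was not.

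Adamts1, the neighbour of Adamts5 on its chromosome and also an inhibitor of blood vessel growth, stood at 8.50, 8.64 and 8.81 against 5.25, 6.23 and 5.03. The Ebf2-positive arrays were nearly equal, and the difference was 3.15 (SE 0.34), or 8.86-fold (adjusted p = 0.0017), with 0.65 left after poly-A centring. Adamts15, another versican-cutting enzyme, stood at 8.47, 6.74 and 6.60 against 4.77, 4.23 and 2.61. Replicates of both groups were spread over more than they were for Adamts1. Its difference was 3.40 (SE 0.71, about 10.5-fold, adjusted p = 0.0164), and it did not pass without both arrays numbered 2 (adjusted p = 0.0621). Adamts8, the neighbour of Adamts15, was near the dim end at 4.03 to 4.70 against 3.73 to 3.91 and did not pass (0.46, adjusted p = 0.224).

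Adamts9, which cuts versican and is needed for matrix turnover in many embryonic tissues, missed the threshold narrowly. It ranged from 7.51 to 8.46 in Ebf2-positive and from 4.88 to 6.78 in Ebf2-negative cells, with no overlap. The difference was 1.85 (SE 0.54, adjusted p = 0.0508), and it passed under several settings, among them leaving out Ebf2-negative replicate 2 (2.23, adjusted p = 0.046). Poly-A centring made it -0.65. Adamts4, an aggrecan-cutting enzyme induced by inflammation, was the only called member with both means below 6, at 4.75 ± 0.58 and 3.46 ± 0.24 (1.29, adjusted p = 0.0321, -1.20 after poly-A centring). Its call was lost without Ebf2-negative replicate 1 (0.107), 2 (0.0599) or 3 (0.11), or without both arrays numbered 2 (0.0643), and its second probe set (0.14) was not called. Adamts20, known from pigment cell migration, was dim in both groups (1.75 ± 0.17 and 1.65 ± 0.44).

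Adamts12, which with Adamts7 cuts cartilage oligomeric matrix protein (COMP), had the largest difference of all members. It stood at 8.73, 9.64 and 10.06 on the Ebf2-positive and at 2.97, 3.66 and 3.94 on the Ebf2-negative arrays. The Ebf2-negative values were all at the dim end. The difference was 5.95 (SE 0.42), or about 61.9-fold (adjusted p = 0.000459). A second probe set was dim in both groups, at 1.81 and 1.61, and was not called. Adamts7 was at 3.64 to 4.56 against 2.82 to 3.40 and missed the threshold (1.05, adjusted p = 0.0529), passing without Ebf2-positive replicate 1 (1.34, adjusted p = 0.0178).

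Adamts3, which removes the N-terminal propeptide of procollagens, was the only gene of this role measured. It stood at 3.91 to 6.13 in Ebf2-positive and at 5.59 to 6.01 in Ebf2-negative cells, and Ebf2-positive replicate 3 was the lowest of all arrays. The groups overlapped and the difference of -0.60 did not pass (adjusted p = 0.486). A second Adamts3 probe set, dim at 2.26 and 1.99, had the opposite sign (0.27) and was not called.

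Among the remaining ADAMTS genes, Adamts16 and Adamts10 were called higher. Adamts16, linked to kidney and gonad development, stood at 6.01, 4.92 and 7.21 against 3.35, 3.47 and 2.79. Ebf2-positive replicate 2 was the lowest of its group yet above all Ebf2-negative arrays. The difference was 2.84 (SE 0.57, about 7.17-fold, adjusted p = 0.0138), and leaving out Ebf2-negative replicate 3 ended the call (adjusted p = 0.0585). A second Adamts16 probe set lay between 4.33 and 4.68 on all arrays and differed by -0.04.

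Adamts10, which binds fibrillin microfibrils, averaged 7.75 ± 0.15 on the Ebf2-positive and 5.81 ± 0.27 on the Ebf2-negative arrays (SD, n = 3). It had a difference of 1.94 (SE 0.22, 3.84-fold, adjusted p = 0.00187) that poly-A centring turned to -0.55. A second Adamts10 probe set was dim in both groups, at 3.30 and 3.16, and was not called (0.15). Adamts6, the closest relative of Adamts10, was dim at 3.11 ± 0.34 and 2.70 ± 0.23 (0.41, adjusted p = 0.298). Adamts18 and Adamts19 were dim as well, with differences of 0.23 and 0.74 that did not pass (adjusted p = 0.475 and 0.0647).

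Probe sets of the same gene gave a further view of these differences. The 33 measured members had 66 probe sets, and 19 genes had more than 1. Tested singly, 6.39% of all probe sets were called higher and 8.76% lower. Of the 33 probe sets not chosen, 10 were called higher, 1 lower and 22 not called. Of the 10 with a mean of at least 6 in either group, 9 were called higher and 1, that of Mmp9, lower. That level can be reached through the higher group alone, which favours probe sets that differ. The share called among all probe sets of that brightness was not computed. Probe sets of a gene share the RNA of the same arrays and are not independent replicates.

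**Figure D4:**
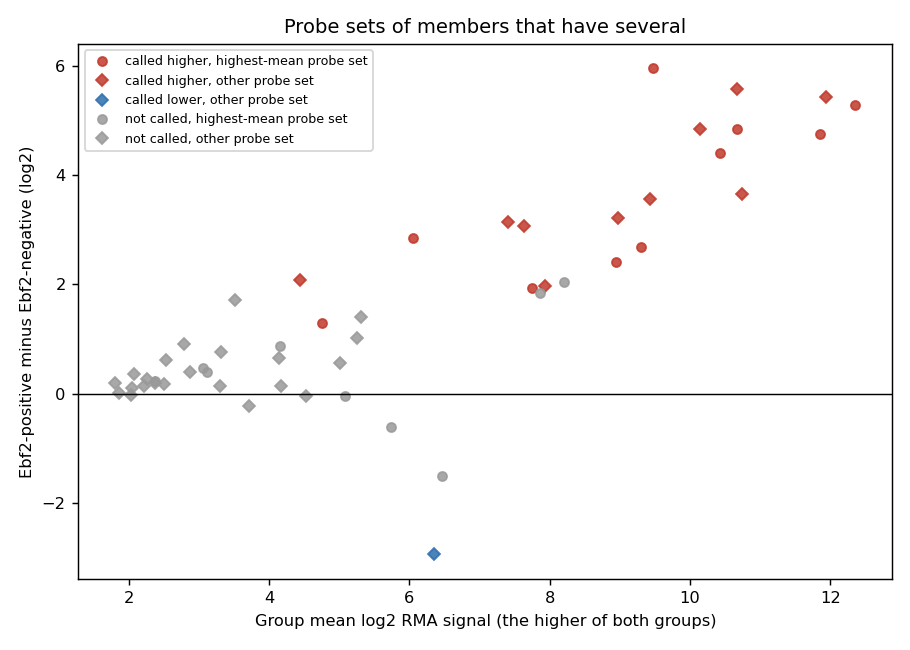
Difference of each probe set (vertical axis, log2) against the higher of its 2 group means (horizontal axis, log2 RMA signal), for members with more than 1 probe set. Circles are the probe sets with the highest mean of their gene and diamonds the others; red and blue mark probe sets called higher and lower in the test of single probe sets. All red symbols but 2 lie at a mean above 6, and the blue diamond is the Mmp9 probe set at -2.94.

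Genes that activate, restrain or assist these proteases were described by lists written from textbook knowledge, with 10.8% of all genes called higher and 13.6% lower for comparison. Plasmin activates several MMPs, and of 7 measured genes of plasminogen activation 2 were called higher and 0 lower, with a median of 0.03. These were Plat, tissue plasminogen activator (9.27 ± 0.24 against 4.21 ± 0.30, a difference of 5.06, adjusted p = 0.000233), and Plau, urokinase (2.54, adjusted p = 0.0107, and 0.05 after poly-A centring). Proprotein convertases cut the propeptides of Mmp11, Mmp14, Mmp23 and ADAMTS enzymes. Of 6 measured, Pcsk6 (5.18) and Pcsk5 (3.37) were called higher and 0 lower, with a median of 0.46, while Furin itself stood at 6.82 to 7.25 against 6.56 to 6.78, with no overlap, and did not pass (0.33, adjusted p = 0.302), as looked up afterwards.

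Of 13 genes that control or clear MMPs, 6 were called higher and 1 lower, with a median of 0.77. Lrp1, the receptor that takes up MMPs, TIMPs and ADAMTS enzymes, differed by 4.87 (10.86 ± 0.18 against 5.99 ± 0.56, adjusted p = 0.000384). Thbs2, a thrombospondin that carries Mmp2 to that receptor, differed by 3.78, and Reck, a membrane-bound MMP inhibitor, by 3.43. Cd44, a hyaluronan receptor that holds MMPs at the cell surface, was the one called lower (-0.88, adjusted p = 0.0298). It lost the call when Ebf2-positive replicate 2 or 3 or any 1 of the Ebf2-negative replicates was left out (adjusted p from 0.0621 to 0.0992).

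Related protease families were mixed. Of 12 ADAM proteases, membrane relatives of ADAMTS, 5 were called higher and 2 lower, with a median of 0.51. Adam33 (3.54), Adam19 (2.97) and Adam23 (2.62) had the largest positive differences. Adam8, found on leukocytes (-1.58), and Adam10, a widespread sheddase (-1.28), were the lower ones, and both lost the call without Ebf2-positive replicate 1 or Ebf2-negative replicates 1 or 3 (adjusted p from 0.0512 to 0.0756). Of 7 ADAMTS-like genes, secreted relatives with no protease domain, 5 were called higher and 0 lower, with a median of 3.45. Adamtsl4 (4.67), Adamtsl1 (4.44) and Adamtsl3 (4.43) led them.

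Of 5 genes for removing the C-terminal propeptide of procollagens, 3 were called higher and 0 lower, with a median of 3.24. They were the enhancers Pcolce2 (5.01) and Pcolce (4.22) and the protease Bmp1 (3.24). Of 10 cathepsins and cystatins, 4 were called higher and 0 lower, with a median of 0.63. Ctsk, a collagen-cutting cathepsin (3.06), Cst3, cystatin C (2.73), and Ctsh (2.24) led. Ctsh lost its call without Ebf2-positive replicates 2 or 3 or Ebf2-negative replicates 1 or 3 (adjusted p from 0.079 to 0.103) and had the value -0.26 after poly-A centring.

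The last lists held substrates of the ADAMTS enzymes and other MMP genes. Of 8 hyalectans and link proteins 1 was called higher (12.5%), a share near the 10.8% of all genes. It was Vcan, versican (7.05, 8.56 and 7.21 against 3.08, 3.38 and 2.17, a difference of 4.73, adjusted p = 0.00158). Acan, aggrecan, looked up afterwards, stood at 8.26, 3.56 and 8.79 against 5.35, 6.68 and 5.40. Ebf2-positive replicate 2 was the lowest of all arrays for Acan and the other two of that group were the highest, and the difference of 1.06 did not pass (adjusted p = 0.623). Of 7 other substrates and partners, 4 were called higher and 0 lower, with a median of 1.73. Fn1, fibronectin (5.87), Comp (3.78) and Fbln1, the cofactor of Adamts1 (3.39), were the largest. Of the other MMP genes, Mmp7, matrilysin, was the brightest at 4.30 ± 0.39 against 4.05 ± 0.14, and 0 of the 4 measured were called. After poly-A centring, list medians ranged from -2.46 for plasminogen activation to 0.96 for the ADAMTS-like genes.

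**Figure D5:**
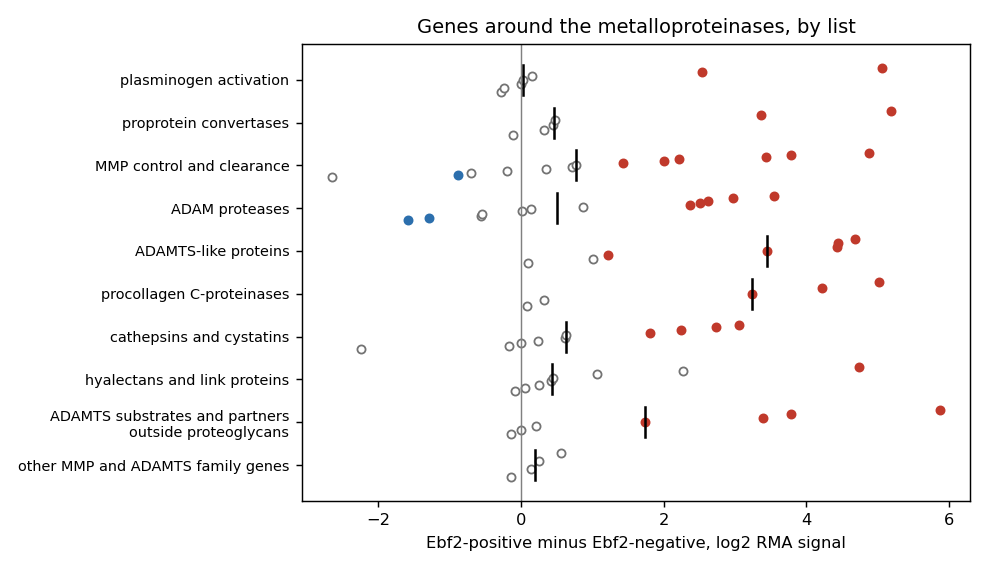
Difference, Ebf2-positive minus Ebf2-negative in log2 RMA signal (horizontal axis), of each measured gene in 10 lists of genes around the metalloproteinases. Filled red points are called higher, filled blue points called lower, open points did not pass, and black bars are list medians. The ADAMTS-like list has the highest median, 3.45, and the 3 blue points are Cd44, Adam8 and Adam10.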

How the data were processed

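RNA of 6 samples, 3 of each sort, was measured on arrays. The authors deposited linear intensity values for every probe set, made with RMA per the submitters' processing notes, in a version that the sources used here do not give. RMA as usually run equalizes the arrays' distributions, so differences in total RNA cannot be seen, and amplification of few cells can add spread to dim genes. Log2 was taken here. Of 45101 probe sets, 64 controls were left out, and 34945 named exactly 1 gene. Array annotation symbols of all 33 measured members were the same in a RefSeq gene table.

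The comparison used lmFit and eBayes of limma 3.58.1 (R 4.3.3; two-sided), after being tested on simulated data. Members, lists, tests and alternatives were chosen with earlier results of these data known. Values per array were given for called members differing by at least 2 and other members with a group mean of at least 8. From each list up to 3 called genes with the largest differences were named, or the brightest where none was called; exceptions are stated. Alternatives covered scaling, filters on dim genes, the choice of probe set, the variance model, a replicate block and leaving out arrays. The planned protein features were not analysed here. Figures used matplotlib 3.10.9 in Python 3.11.15. With 3 arrays a group, precision is limited.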

Additional observations from a re-analysis of the deposited data

How the results depend on the processing

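Directions depended most on centring on the poly-A controls. It gave 15890 called genes, 5 members called higher and 15 lower, and turned the differences of Adamts10 (-0.55), Adamts18 (-2.26), Adamts19 (-1.76), Adamts20 (-2.40), Adamts4 (-1.20), Adamts6 (-2.09), Adamts7 (-1.44), Adamts8 (-2.03), Adamts9 (-0.65), Mmp11 (-0.15), Mmp12 (-2.34), Mmp16 (-1.61), Mmp17 (-1.90), Mmp19 (-2.01), Mmp23 (-0.09), Timp1 (-0.70) and Timp4 (-0.45). Mmp10 (0.03) and Mmp24 (0.08) changed sign with centring on the 75th percentile, and Mmp24 also with the mean of its probe sets (0.05) and without both arrays numbered 2 (0.00). With 1 array left out, called genes ranged from 2690 to 4348, members called higher from 11 to 17 and members called lower from 0 to 2. Adamts20 then ranged from -0.04 to 0.35 and Adamts3 from -1.09 to 0.01. The count of members called lower was 0 after a further quantile normalization, with centring on the 75th percentile, with the trended robust model and with a minimum log2 difference of 1, which left 1433 called genes. It was 2 among genes with a mean of at least 6 and without both arrays numbered 2. Where a value changed, the cause was not tested.

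Whether the replicate numbers pair the samples is not stated in the sources used here. Deviations from the group means of same-numbered arrays correlated at 0.058, 0.106 and 0.029 over 18193 genes. These correlations were low and all positive. They cannot decide the question, because with so few arrays per group they do not exclude a shared animal or sorting day. With the replicate block, 4219 genes, 16 members higher and 0 lower were called. The block ended the calls of Adamts4 (adjusted p = 0.0542) and Mmp9 (0.071) and added Adamts7 (0.0347), Adamts9 (0.0291) and Timp4 (0.0122).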
